A study of Homo sapiens with 6 samples.

Results

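The circadian clock genes are a set of 10 rows of the deposited table, chosen by symbol: the activators ARNTL (also called BMAL1) and CLOCK, the repressors PER1, PER2, PER3, CRY1 and CRY2, the nuclear receptors NR1D1 and NR1D2, and the output factor DBP. All 10 had a row among the 12306 in the table, and 9 of them were high enough to be tested. The samples were RNA of 92.1, an established line of human uveal melanoma cells kept in serum-containing medium. Cells were exposed for 2 h either to 1 µM VS-4718, a compound that inhibits focal adhesion kinase, or to its solvent DMSO (vehicle). Each group held 3 libraries, which the design text calls independent. Separate cultures are not mentioned in the labels, and p-values then reflect only how far these samples differ, which may be technical. No genotype or transgene distinguishes the groups. The labels mention no step to synchronise the cells and no time of day of collection. Each value is therefore a single reading, and the clock phases of the cells behind it are unknown.

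The molecular clock is a transcriptional feedback loop. The proteins ARNTL and CLOCK bind DNA as a pair and switch on the PER and CRY genes, whose proteins then return to the nucleus and repress that pair. In a second loop the REV-ERB receptors, encoded by NR1D1 and NR1D2, are switched on by the same pair and repress ARNTL, while DBP carries the rhythm to further genes through its own binding element. In cells that are not synchronised, individual clocks run out of step and a bulk sample averages over their phases. In such a bulk sample, fewer cells with a transcript and less of it per cell cannot be told apart.

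The short sequences below are shown because they are the elements through which this loop is known to run, found by letter search in the human start-site windows of these genes. RefSeq windows of 300 bases (250 before and 50 after the start, GRCh38.p14) were found for all 10 genes and searched on both strands for 5 elements. These were the E-box CACGTG, the related E'-box CACGTT, the D-box TTATGTAA, the cores TAGGTCA and TGGGTCA recognised by REV-ERB and ROR receptors, and the cyclic AMP element TGACGTCA. No searched sequence contains another. Of the 10 windows, 6 held 1 match each. Capitals mark the match, and each line runs 5′ to 3′ on the strand of the gene.

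PER1 (E-box): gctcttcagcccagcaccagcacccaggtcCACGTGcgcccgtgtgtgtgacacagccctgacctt
PER2 (E'-box): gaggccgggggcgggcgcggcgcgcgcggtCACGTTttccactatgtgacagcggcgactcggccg
PER3 (D-box): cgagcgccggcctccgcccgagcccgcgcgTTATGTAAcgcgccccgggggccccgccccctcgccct
CRY1 (E'-box, other strand): cacacttcagaAACGTGaggtgccggtg
NR1D1 (E'-box, other strand): cgcaagagctcAACGTGccggctgttgg
ARNTL (REV-ERB and ROR core): aaggcagaaagTAGGTCAgggacggaggt

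The PER1 stretch lies at chr17:8152542-8152607 on the minus strand and its E-box begins 173 bases before the RefSeq start. PER2's lies at chr2:238288772-238288837 on the minus strand, with the element 197 bases before the start. In GENCODE 29 both stretches fall in an intron of a longer annotated transcript of the gene. PER3's, at chr1:7784084-7784151 on the plus strand, has its D-box 177 bases before the start and lies outside the annotated gene. CRY1's, at chr12:107093622-107093649 on the minus strand, has its element 89 bases before the RefSeq start and within the 5′ UTR of an annotated transcript. NR1D1's lies at chr17:40100741-40100768 on the minus strand, outside the annotated gene, with its element 168 bases before the start. The ARNTL core lies at chr11:13277809-13277837 on the plus strand, in the 5′ UTR, and begins at base 31 counted from the start. CRY2, CLOCK, NR1D2 and DBP had no match in their windows. Among 27305 windows of the same length, 7.43% held the E-box, 5.27% the E'-box, 0.912% the D-box, 5.67% a REV-ERB or ROR core and 1.98% the cyclic AMP element. The share of windows holding any of these elements was not computed, so the count of matched windows has no background here. A match is a description of these letters and not evidence of binding.

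No clock gene passed the test after 2 h with VS-4718. Of the 9 tested, 0 had an adjusted p under 0.05 in limma, a linear model fitted to all 9229 tested rows, where 0.13% of rows passed. None of the 9 had an unadjusted p under 0.05 either, against 9.76% of all tested rows. Means were lower with VS-4718 for 7 of the 9 and higher for 2, beside 58.2% lower over all tested rows. The median log2 fold change of the 9 was -0.08, beside -0.03 for all tested rows. Values are log2 of a TPM-like abundance per gene row, fold changes are VS-4718 minus vehicle, and intervals are limma's at 95%.

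The row names of the table follow mouse usage although the sources name a human line and GRCh38, and rows of gene families may share reads. Which transcripts the reads were matched against is not stated. If these were mouse transcripts, a clock row would hold only the human reads that match mouse sequence, and every level printed here would be that of such a row. Levels are therefore best compared within a row. The reads behind each library are unknown, because a TPM-like value keeps no total. Library medians over the tested rows lay between 3.97 and 4.02. All 7 melanocyte markers had a row, and their summed level was 7224 to 7808 TPM-like units in vehicle and 7018 to 7689 with VS-4718. Of these markers, MLANA, TYR and DCT were below the filter on low values in this melanocytic line. Fibroblast markers summed to at most 1.72 units in any library, and the single immune and epithelial markers with a row to at most 0.142 and 0.501. The endothelial rows summed to between 3.86 and 8.60 units over all libraries.

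**Figure D1:**
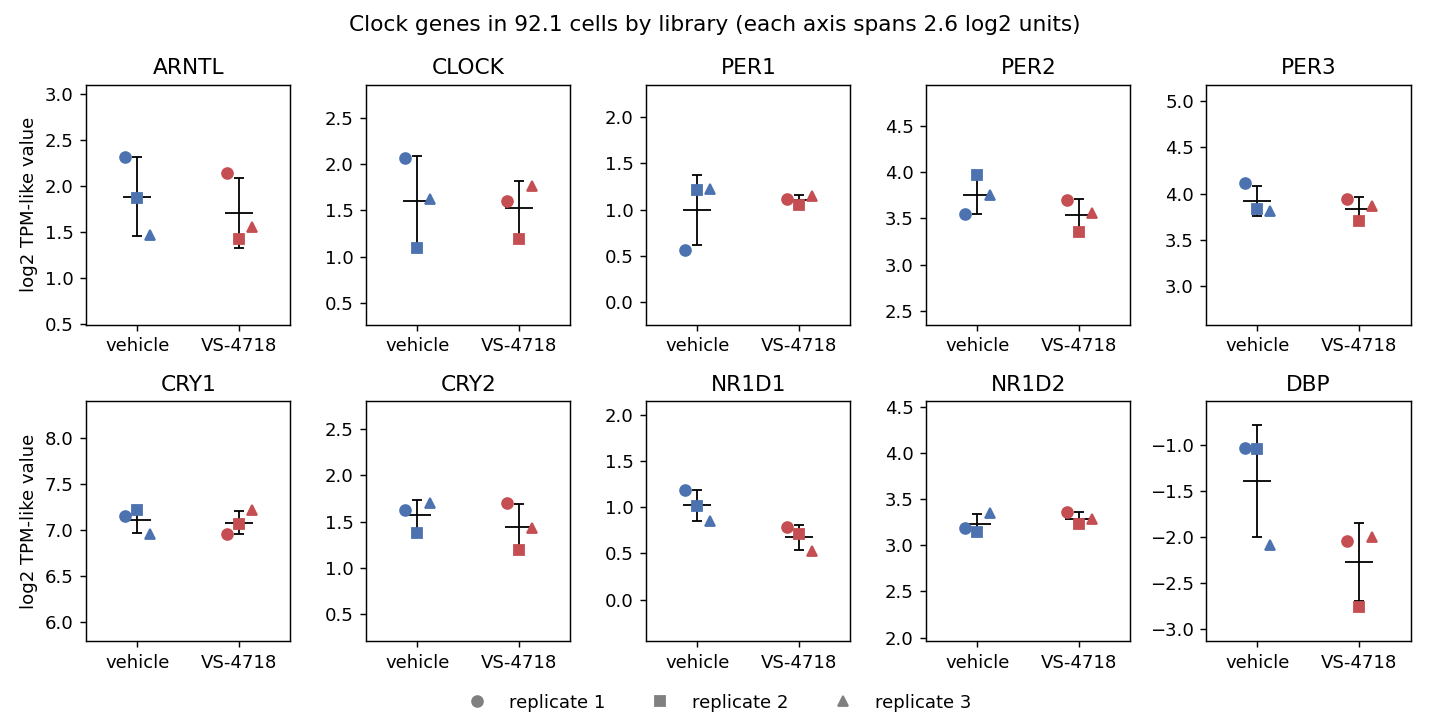
Log2 TPM-like values (vertical axes, each spanning the same number of log2 units) of the 10 clock genes in 3 vehicle and 3 VS-4718 libraries. Points are libraries, with shapes for replicate numbers, and bars are the mean ± SD; the 2 groups overlap in every gene except NR1D1.

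The activators are described first. ARNTL, the partner of CLOCK, stood at log2 values of 2.32, 1.87 and 1.46 in vehicle replicates 1 to 3 and of 2.14, 1.43 and 1.56 with VS-4718. CLOCK stood at 2.07, 1.10 and 1.63 in vehicle and at 1.61, 1.19 and 1.77 with VS-4718. In both genes the groups overlapped, and vehicle replicate 1 had the highest value of all 6 libraries. ARNTL had a log2 fold change of -0.18 (SE 0.28, 95% interval -0.84 to 0.49, limma adjusted p = 0.86). For CLOCK it was -0.08 (SE 0.28, interval -0.75 to 0.59, limma adjusted p = 0.94). Put as a ratio, the ARNTL interval runs from a fall of 44.1% to a rise of 40.2%. With 3 libraries a group, changes of either direction within that range remain compatible with the values.

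These were noisy rows for their level. The SD within groups was 0.40 for ARNTL and 0.41 for CLOCK, larger than in 79.4% and 76.8% of the 500 rows nearest in mean. Without vehicle replicate 1 the fold change turned positive for both, to 0.04 for ARNTL and 0.16 for CLOCK. CLOCK was also positive, at 0.09, without VS-4718 replicate 2. ARNTL minus CLOCK within a library, which no library-wide scaling can move, was 0.29 ± 0.47 (SD, n = 3) in vehicle and 0.19 ± 0.38 with VS-4718.

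Among the PER genes, which encode the repressors that the activators induce, PER2 had the largest difference. PER2 stood at 3.55, 3.97 and 3.75 in vehicle and at 3.70, 3.35 and 3.56 with VS-4718. Vehicle replicate 1 lay below VS-4718 replicates 1 and 3, so the groups overlapped. The PER2 fold change was -0.22 (SE 0.14, interval -0.56 to 0.12, limma adjusted p = 0.66), a geometric mean 14.2% lower. It stayed negative in all 15 other settings tried, from -0.32 to -0.11. The replicate block and settings that change only the variance model or the rows tested cannot move it. The PER2 value was nearest to 0 without vehicle replicate 2 (-0.11) and VS-4718 replicate 2 (-0.13).

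PER1 responds within hours to cyclic AMP, calcium and glucocorticoid signals in many cell types. It stood at 0.56, 1.21 and 1.23 in vehicle and at 1.11, 1.05 and 1.15 with VS-4718. All 3 VS-4718 values lay inside the span of the vehicle values, whose lowest was replicate 1. The fold change of 0.11 (SE 0.22, interval -0.42 to 0.64, limma adjusted p = 0.89) became -0.11 without vehicle replicate 1. PER3, a paralog with a weaker part in timekeeping, stood at 4.11, 3.83 and 3.81 in vehicle and at 3.94, 3.71 and 3.86 with VS-4718. Its groups overlapped, with a fold change of -0.08 (SE 0.12, interval -0.36 to 0.20, limma adjusted p = 0.85), and 0.02 without vehicle replicate 1.

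CRY1 and CRY2 encode the cryptochromes, which bind the activators and hold them inactive. CRY1 was the highest clock row, at 7.15, 7.21 and 6.95 in vehicle and 6.96, 7.07 and 7.22 with VS-4718. The groups covered almost the same span, and CRY1 had the smallest difference of the 10, at -0.03 (SE 0.09, limma adjusted p = 0.94). Its interval, from -0.25 to 0.19, leaves room for a fall of at most 15.7% or a rise of at most 14.4%. CRY1 was the only clock gene whose sign turned with median scaling of the libraries, to 0.01. CRY2 stood at 1.63, 1.37 and 1.70 in vehicle and at 1.70, 1.19 and 1.43 with VS-4718. Its groups overlapped, with a fold change of -0.13 (SE 0.19, interval -0.57 to 0.32, limma adjusted p = 0.85). Single libraries moved this value, to -0.0035 without VS-4718 replicate 2, -0.06 without vehicle replicate 3, and -0.23 and -0.26 without vehicle replicate 2 and VS-4718 replicate 1.

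NR1D1, which encodes REV-ERB alpha, was the only clock gene whose groups did not overlap. It stood at 1.19, 1.02 and 0.85 in vehicle and at 0.79, 0.71 and 0.53 with VS-4718. All 3 VS-4718 values were below all 3 vehicle values, a pattern that 11.2% of all tested rows shared in this direction. The highest VS-4718 value and the lowest vehicle value were 0.06 units apart. NR1D1's fold change was -0.34 (SE 0.18, interval -0.77 to 0.08), a geometric mean 21.2% lower. It had the smallest p of the 9, 0.098 unadjusted and 0.59 adjusted in limma, and ranked 1529 among the 9229 tested rows.

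The value stayed negative in all 14 other settings that tested it, from -0.43 to -0.22, with limma adjusted p between 0.45 and 0.78. For most of these settings that sign was fixed in advance. The replicate block and settings that change only the variance model or the rows tested cannot move the fold change. Because the groups did not overlap, leaving out a library cannot turn its sign. In limma without the mean-variance trend NR1D1's unadjusted p was 0.027. Its within-group SD of 0.15 was small for its level: only 12.4% of the 500 nearest rows had a smaller one, and their median was 0.31. In GENCODE 29, NR1D1 shares 263 exonic bases, 9.49% of its exonic length, with THRA on the other strand. The sources used here do not say whether counting used strand or which transcripts it used. How any reads from that overlap were divided between these genes is therefore unknown. THRA, the thyroid hormone receptor alpha gene, stood at 2.42 ± 0.18 (SD, n = 3) in vehicle and 2.47 ± 0.18 with VS-4718, a fold change of 0.05 (SE 0.15).

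NR1D2, which encodes REV-ERB beta, stood at 3.18, 3.15 and 3.35 in vehicle and 3.36, 3.23 and 3.28 with VS-4718. Its groups overlapped, and it was 1 of the 2 tested genes with a higher mean, by 0.06 (SE 0.10, interval -0.18 to 0.30, limma adjusted p = 0.87). That mean difference ran from 0.02 without vehicle replicate 2 to 0.12 without vehicle replicate 3. NR1D2 minus NR1D1 within a library was 1.99, 2.13 and 2.50 in vehicle and 2.57, 2.52 and 2.76 with VS-4718. Each VS-4718 value of this difference was above each vehicle value, by as little as 0.02. It was computed after the values were seen and was not tested.

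DBP, a bZIP factor whose RNA is a standard readout of the activators' output, was the lowest row and did not pass the filter. It stood at -1.04, -1.05 and -2.09 in vehicle and at -2.04, -2.76 and -2.01 with VS-4718, which is 0.148 to 0.487 TPM-like units over the 6 libraries. Vehicle replicate 3 lay below 2 of the VS-4718 values, so the groups overlapped. Its difference of -0.88 (interval -1.89 to 0.14) comes from the fit without a filter, where its limma adjusted p was 0.63. After adding a pseudocount of 1 the difference was -0.20. DBP shares 661 exonic bases, 10.1% of its exonic length, with SPHK2 on the other strand, a sphingosine kinase gene at -0.07 ± 0.27 (SD, n = 3) in vehicle and -0.01 ± 0.12 with VS-4718.

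**Figure D2:**
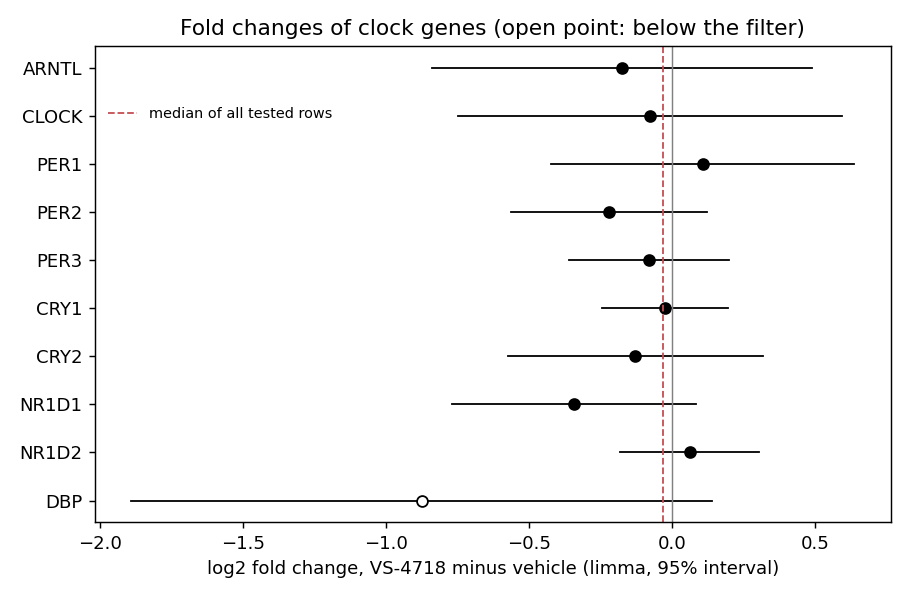
Log2 fold change (horizontal axis, VS-4718 minus vehicle) of each clock gene with limma's 95% interval; DBP, the open point, comes from the fit without a filter. Every interval includes 0, and the dashed line marks the median of all tested rows, -0.03.

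In order of level over all 6 libraries, CRY1 came first at 137 TPM-like units, followed by PER3 at 14.7, PER2 at 12.5 and NR1D2 at 9.58. ARNTL (3.48), CLOCK (2.95), CRY2 (2.83), PER1 (2.07) and NR1D1 (1.80) followed, and DBP was last at 0.281. These are geometric means on a length-scaled measure. If the rows were counted against mouse transcripts, they would hold unequal parts of each gene's reads, and this order describes rows of the table rather than genes. The ranges of neighbours over the 6 libraries overlapped everywhere except between CRY1 and PER3, between NR1D2 and ARNTL, and between NR1D1 and DBP. CRY1 exceeded CRY2 within a library by 5.54 ± 0.30 (SD, n = 3) in vehicle libraries and 5.64 ± 0.33 in VS-4718 libraries, in log2 units. The mean of the PER and CRY genes minus that of ARNTL and CLOCK was 1.20, 2.03 and 1.94 in vehicle and 1.61, 1.97 and 1.78 with VS-4718, with the groups overlapping.

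VS-4718 replicate 2 had the lowest value of its group in 8 of the 10 genes and the highest in 0. Over all tested rows it was the lowest of its group in 42.2% and the highest in 27.3%. Its median over all tested rows, 3.97, was also at the low end of the 6 libraries, beside VS-4718 replicate 1; the part of this in the clock values was not tested. Vehicle replicate 1 was the highest of its group in 5 genes and the lowest in 2, PER1 and PER2, beside 34.5% and 32.6% of all tested rows. Leaving it out gave the opposite sign for PER1, PER3, ARNTL and CLOCK. No clock gene passed whichever of the 6 libraries was left out.

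**Figure D3:**
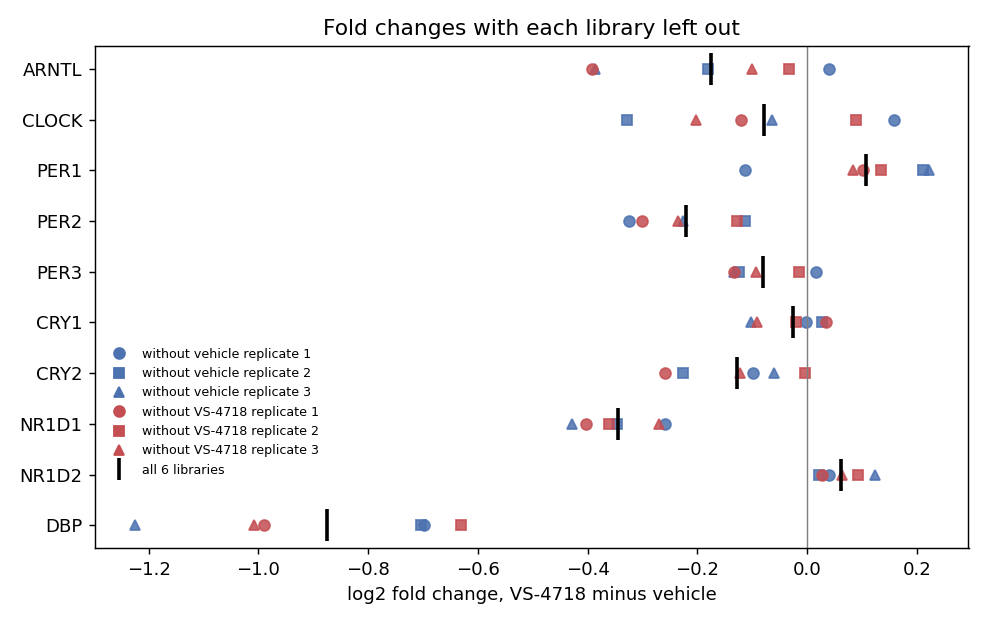
Log2 fold change of each clock gene (horizontal axis, VS-4718 minus vehicle) with all 6 libraries (black bars) and with each library left out in turn (coloured points). PER2, CRY2, NR1D1, NR1D2 and DBP kept their sign in all 6, whereas the points of the other 5 genes lie on both sides of 0. For NR1D1, whose groups do not overlap, leaving out a library could not turn the sign.

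Genes that act with the clock, or that are linked to the same inputs as PER1, were taken from 10 lists by role. The lists held 72 genes, of which 65 had a row and 55 were tested. None passed limma over all rows, and 6 had an unadjusted p under 0.05 (10.9%, close to the 9.76% of all tested rows), 4 lower and 2 higher. Means were lower for 35 (63.6%) and higher for 20, with a median of -0.03, beside 58.2% lower over all tested rows. The counts of lower and higher means in each list below stand beside that same share. The smallest adjusted p was 0.18. Neither the 10 clock genes nor these lists therefore held a called row.

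The further repressors of E-box transcription had 2 tested members, both with lower means. BHLHE41 (DEC2) stood at 1.82, 1.34 and 1.36 in vehicle and 0.56, 0.70 and 0.76 with VS-4718, a fold change of -0.83 (SE 0.19, limma unadjusted p = 0.0037, adjusted p = 0.28). BHLHE40 (DEC1), its paralog, stood at 7.70, 7.49 and 7.52 in vehicle and 7.36, 7.29 and 7.30 with VS-4718, a fold change of -0.25 (SE 0.07, limma unadjusted p = 0.0078, adjusted p = 0.35). The groups did not overlap in either gene, a pattern that 11.2% of tested rows had in the lower direction. CIART, the other gene of this list, had no row among those used here.

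Of the 9 tested genes for kinases of clock proteins and their subunits, 6 had lower means and 1 an unadjusted p under 0.05. That gene, CSNK1D, encodes casein kinase 1 delta, which phosphorylates PER proteins and sets their lifetime. CSNK1D stood at 7.11, 7.17 and 6.89 in vehicle and 6.47, 6.64 and 6.59 with VS-4718. The groups did not overlap, with a fold change of -0.49 (SE 0.09) and a limma adjusted p of 0.18. Its paralog CSNK1E had a fold change of -0.04 (SE 0.07).

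Cofactors and corepressors had 10 of 14 tested members lower, with a median of -0.04. CIPC, which binds CLOCK and inhibits the activator pair, stood at 3.66, 3.75 and 3.26 in vehicle and 3.04, 3.02 and 3.04 with VS-4718. Its fold change was -0.52 (SE 0.14, limma adjusted p = 0.36), and the groups did not overlap. Ubiquitin ligases and proteases of clock proteins had 6 of 10 lower and none with an unadjusted p under 0.05. FBXW7, a ligase subunit, had the smallest p there, with a fold change of -0.27 (SE 0.14, limma adjusted p = 0.59).

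Among the remaining clock lists, NPAS2, which can stand in for CLOCK, had a fold change of -0.36 (SE 0.32). It was -0.21 without vehicle replicate 1, -0.14 and -0.22 without VS-4718 replicates 1 and 2, and -0.73 without VS-4718 replicate 3, where its limma adjusted p was 0.33. ARNTL2, a paralog of ARNTL, was below the filter. Of the ROR receptors, RORB was below the filter and RORA had no row among those used here. HLF, a PAR bZIP relative of DBP, varied widely, from 1.40 to 3.51 in vehicle and from 0.99 to 3.35 with VS-4718. Clock output genes had 5 of 7 tested members lower, BHLHE40 and BHLHE41 among them, with a median of -0.09.

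Genes linked to the same inputs as PER1, some of them regulators rather than responding genes, formed the last lists. The list of CREB targets and partners, which holds the regulators CREB1, CRTC1 and ATF1, had 7 of 10 tested members higher. Its median was 0.11, and 1 gene, NR4A1, had an unadjusted limma p under 0.05. NR4A1, an orphan nuclear receptor gene induced early by many signals, stood at 5.41, 5.22 and 5.26 in vehicle and 5.62, 5.67 and 5.58 with VS-4718. Its groups did not overlap, as in 5.15% of all tested rows in the higher direction, with a fold change of 0.33 (SE 0.07, limma adjusted p = 0.26). The list of glucocorticoid receptor targets had 3 of 5 tested members lower, among them the gene of the receptor itself, NR3C1 (-0.12). NFKBIA, which encodes the NF-kappa-B inhibitor I-kappa-B alpha, was the list's 1 gene with an unadjusted p under 0.05. It stood at 4.06, 4.07 and 4.14 in vehicle and 4.72, 4.49 and 4.56 with VS-4718, a fold change of 0.50 (SE 0.09, limma adjusted p = 0.18).

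**Figure D4:**
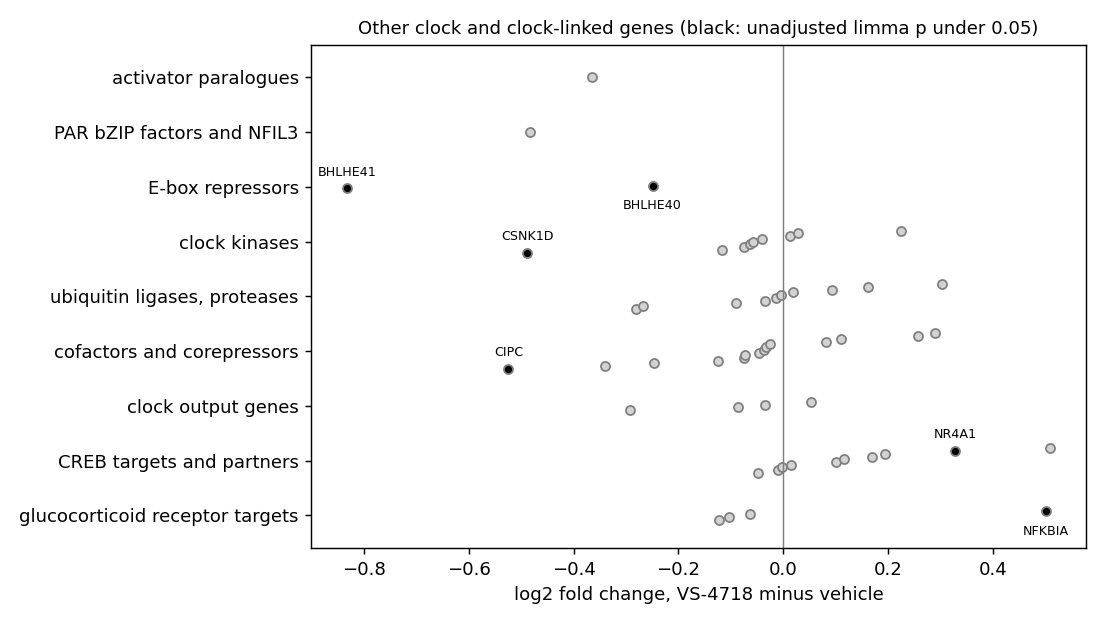
Log2 fold changes (horizontal axis, VS-4718 minus vehicle) of the tested genes in lists linked to the clock, each gene drawn once, under the first list that holds it. Black points have an unadjusted limma p under 0.05: BHLHE41, BHLHE40, CSNK1D and CIPC lie below 0, and NR4A1 and NFKBIA above it.

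Among the 9 clock genes tested, NR1D1 and PER2 had the smallest p, and the 3 rows most like each over the 6 libraries were sought by the root mean square difference of centred log2 values. For NR1D1 these were VANGL2 (0.06), a planar cell polarity gene, the mouse-style row GM6501 (0.07) and RCC1 (0.07), which encodes the exchange factor of the GTPase RAN. For PER2 they were EIF3S6-PS4, a mouse-style pseudogene name, RCL1, a factor of ribosomal RNA processing, and THUMPD3, each at 0.05. With 9229 rows and 6 libraries, rows this close may exist for many profiles of modest amplitude, which was not tested. None of the 6 had a limma adjusted p under 0.05.

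In GENCODE 29 on GRCh38 all 10 genes are protein coding, and the values cover no particular exon. PER3 lies on chromosome 1 from 7784320 to 7845177, PER2 on chromosome 2 from 238244038 to 238290102 and NR1D2 on chromosome 3 from 23945260 to 23980618. CLOCK lies on chromosome 4 from 55427903 to 55547138. ARNTL spans 13276652 to 13387266 and CRY2 45847118 to 45883248, both on chromosome 11. CRY1 lies on chromosome 12 from 106991364 to 107093829. PER1 spans 8140472 to 8156506 and NR1D1 40092787 to 40100725, both on chromosome 17, and DBP lies on chromosome 19 from 48630030 to 48637438. Besides NR1D1 and DBP, PER3 shares 868 exonic bases (10.7%) with UTS2 and CLOCK 76 with TMEM165, each on the other strand. Further genes without a row share 482 exonic bases with PER3, 188 with PER2, 94 with CRY1 and 27 with CLOCK, also on the other strand. On the same strand, PER1 shares 78 exonic bases with MIR6883 and 30 with AC129492.3, which have no row either.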

How the data were processed

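The deposited table holds 1 log2 value per gene symbol and library, which its values show to be log2 of a TPM-like measure: back on the linear scale, columns sum to 836527 to 840714. The submitters' processing notes name kallisto, without a version, and GRCh38; the sources used here give no index, annotation, strandedness or filter. Of 12306 rows, 9309 carried a human symbol and 322 a synonym of a single human gene in RefSeq's table (GRCh38.p14); ARNTL and SKP1A matched that way.

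Rows with a mean above the lowest 25% of rows (over 0.70) were tested with limma 3.58.1 in R 4.3.3 (mean-variance trend, group as the only term), with Benjamini-Hochberg adjustment over all 9229 rows, a threshold of 0.05 and two-sided p-values. An exact permutation of 1 gene over 3 against 3 libraries cannot go below 0.1. The script was tested on simulated data.

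The 10 genes and all lists were chosen with earlier results of these data known. All 10 genes and THRA were named; from each list, tested genes with an unadjusted p under 0.05 (up to 4 a direction) or else the gene with the smallest p; and the 3 rows most like each of the 2 clock genes with the smallest p. CSNK1E, SPHK2, UTS2, TMEM165, the marker genes and the genes below the filter or without a row were named outside this rule. Figures used matplotlib 3.10.9.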

Additional observations from a re-analysis of the deposited data

How the results depend on the processing

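No clock gene and no gene of the clock-linked lists passed in any of the 15 other settings: a replicate block, each library left out, median scaling, no filter, a stricter filter (the upper 50% of rows, which keeps 4 clock genes), a pseudocount of 1, no mean-variance trend, robust variances, quality weights and human names only. Over all rows, the 12 calls became 0 with the replicate block and 0 without the trend (793 and 910 rows then had an unadjusted p under 0.05 in limma) and between 0 and 7 with a library left out; fewer residual degrees of freedom come with the block and with a library less, and the cause was not tested. No label says that a number marks a shared culture, batch or day, so the numbers were not taken as pairs. Residual correlations across rows were 0.13, 0.05 and 0.03 for same-numbered libraries and -0.09 to 0.05 for differently numbered ones. These values do not decide whether the numbers mark pairs. No clock gene was called with or without the block, which called 0 of all rows, so this says nothing on pairing. With a library left out, fold changes ran from -0.11 to 0.22 for PER1, -0.13 to 0.015 for PER3, -0.10 to 0.035 for CRY1, -0.39 to 0.040 for ARNTL, -0.33 to 0.16 for CLOCK, -0.049 to 0.13 for THRA and -1.25 to 0.12 for HLF, and the signs of these 7 turned; CRY1 also turned with median scaling (0.0082). PER2, CRY2, NR1D1 and NR1D2 kept their sign in every setting that tested them. With a library left out CRY2 ran from -0.26 to -0.0035 and NR1D2 from 0.021 to 0.12. BHLHE40, BHLHE41, CSNK1D, CIPC, NR4A1 and NFKBIA also kept their sign, with an unadjusted limma p under 0.05 in each setting that tested them. They were named because of such a p in these data, so this is no independent support. In NR1D1 and these list genes the groups did not overlap, so leaving out a library could not turn the sign. The block and settings that change only the variance model or the rows tested cannot move a fold change. Without a read total, the counting error of low rows such as NR1D1 and DBP is unknown.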
